A study of Homo sapiens with 12 samples.

Results

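The genes described here are 41 autophagy and mitophagy genes, named as a list and matched by symbol to the rows of a deposited count table. All 41 were among the 17197 symbols of that table, and all 41 were among the 13171 genes abundant enough to be tested. They were measured by RNA sequencing in AC16 cells, an established human line that arose from the fusion of adult ventricular heart cells with SV40-transformed fibroblasts. EP300, the target of the siRNA, encodes a lysine acetyltransferase that acts as a coactivator of many transcription factors. The 12 libraries formed 4 groups of 3: siNC (libraries 1 to 3, negative control siRNA), siEP300 (4 to 6, EP300 siRNA), siNC.H2O2 (7 to 9, negative control siRNA and hydrogen peroxide) and siEP300.H2O2 (10 to 12, EP300 siRNA and hydrogen peroxide). Every group was transfected with the jetPRIME reagent in medium without serum. The H2O2 groups were exposed 12 h later for 1 h, at a labelled dose of 200 mM whose unit is uncertain, and were then returned to complete medium. RNA was taken by Trizol after 48 h. Whether a group's 3 libraries were grown as separate cultures is not stated in the labels. The p-values therefore rest on the spread among these libraries, which may be technical.

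The labels disagree on the siRNA target: titles and protocol name EP300, whereas a treatment field names MLF1 for the same 6 samples. EP300 stood at 101, 69.1 and 80.1 CPM, counts scaled to a common library total, in siNC and at 36.3, 36.8 and 36.7 in siEP300. With H2O2 it stood at 59.9, 80.4 and 89.9 with control siRNA and at 30.1, 26.9 and 26.5 with EP300 siRNA, so the groups named for EP300 siRNA lay below their controls in every library. Library totals ran from 16081437 to 19033679 counts. Of 12 cardiomyocyte markers listed, 11 were in the table and 3 were abundant enough to be tested. These were NPPB, TTN and TNNI3, with at most 1159, 142 and 13 counts in any library. Of those not tested, MYH6, MYH7 and MYL2 reached at most 1 count in any library, TNNT2 at most 3 and ACTN2, the highest, 10. The 11 markers summed to 45.6 to 48.8 CPM in siNC, 43.9 to 45.3 in siEP300, 50 to 67.4 in siNC.H2O2 and 43.2 to 52.4 in siEP300.H2O2. All 10 fibroblast markers listed were tested, and their summed level was 9030 to 9320 CPM in siNC, 9590 to 9870 in siEP300, 9250 to 9720 in siNC.H2O2 and 7610 to 8020 in siEP300.H2O2. The summed level of the 5 smooth muscle markers was 390 to 417, 582 to 592, 548 to 622 and 693 to 858 CPM in the same order, and that of the 5 epithelial markers 355 to 398, 327 to 332, 575 to 627 and 447 to 524 CPM. The leukocyte markers listed summed to 34.4 to 42.9, 42 to 46.2, 52.8 to 54.7 and 68 to 80.8 CPM, and the endothelial markers to 12 to 14.6, 14 to 15.4, 11.8 to 14.1 and 8.8 to 10.9 CPM. The part of these shifts in the results below was not tested, and in bulk RNA fewer cells of a type and less RNA per cell cannot be told apart.

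Autophagy delivers cytoplasm and organelles to the lysosome inside a double-membraned vesicle, the autophagosome. A kinase complex starts it, a lipid kinase complex marks the site, membrane is supplied by ATG9 vesicles and ATG2 lipid transfer proteins, and conjugation enzymes couple ATG8 proteins (the LC3 and GABARAP families) to the growing membrane. Cargo receptors tie marked cargo to ATG8 proteins, and mitophagy receptors do so for mitochondria, which heart muscle cells hold in large numbers. The MiT/TFE transcription factors switch on lysosomal and autophagy genes. Transcript levels do not measure the flow of cargo through this pathway.

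The members that changed at least 1.5-fold with EP300 siRNA, without or with H2O2, were the mitophagy genes BNIP3, BNIP3L and PINK1, the phosphoinositide reader WIPI1 and the conjugation partner ATG5, which fell, and BECN1, the protease ATG4A and the cargo receptor SQSTM1, which rose. Without H2O2, 16 of 41 members rose and 9 fell at a Benjamini-Hochberg adjusted p under 0.05 in edgeR's quasi-likelihood test. Over all genes tested, 30.1% rose and 31.4% fell, so the share of members called was close to the background. With H2O2, 15 members rose and 11 fell, against 28.4% and 30.6% of all genes. Few members moved far. A change of at least 1.5-fold was called upward in 1 member without H2O2 (BECN1; background 9.63%) and in 2 with H2O2 (ATG4A and SQSTM1; 8.94%). Downward it was called in 4 members in each case, WIPI1, ATG5, BNIP3 and BNIP3L without H2O2 (background 14.7%) and WIPI1, BNIP3, BNIP3L and PINK1 with H2O2 (14%). The median absolute log2 fold change of members was 0.23 without and 0.21 with H2O2, beside 0.318 and 0.303 over all genes.

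**Figure D1:**
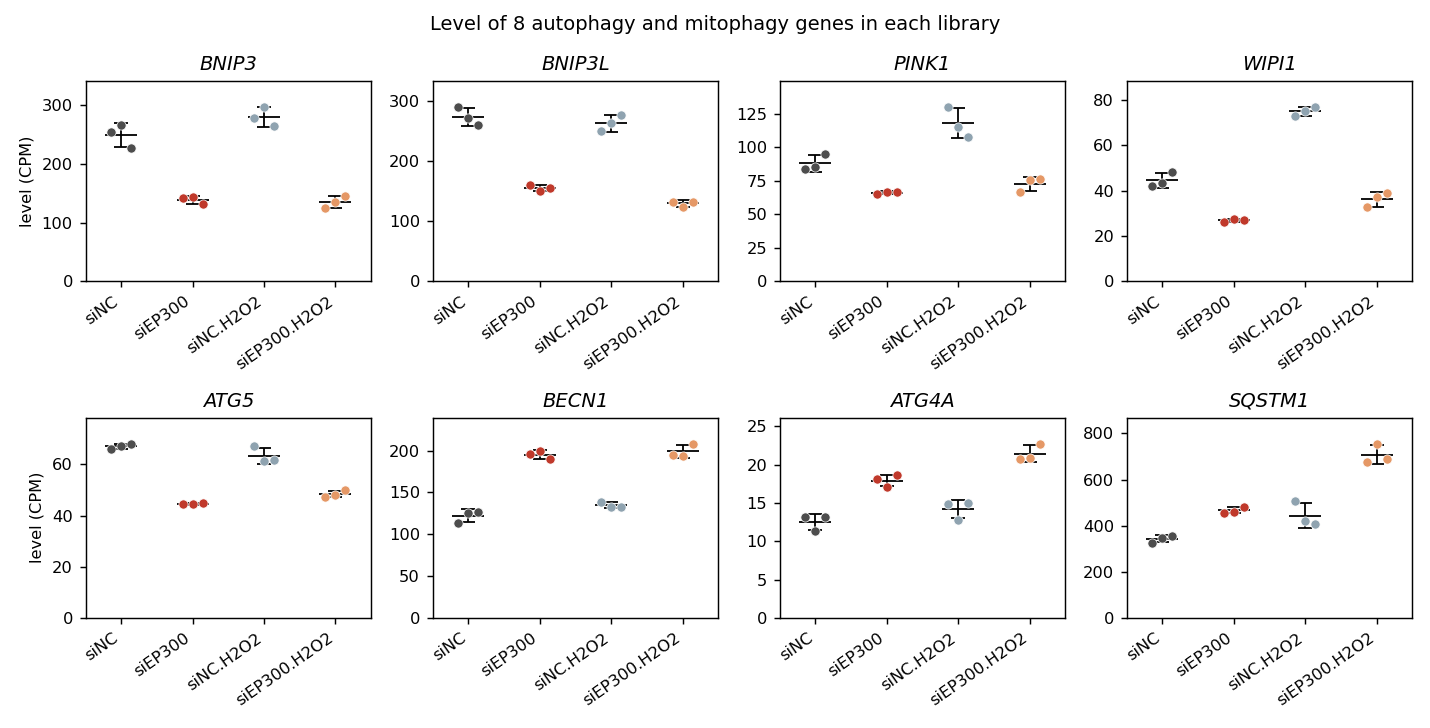
Level (CPM, linear axis from 0) of the 8 genes with a called change of at least 1.5-fold in any comparison. Points are libraries, the long bar is the group mean and the whiskers are 1 SD (n = 3); BNIP3, BNIP3L and WIPI1 are lower, and BECN1, ATG4A and SQSTM1 higher, in each EP300 siRNA group than in its control.

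Of the 4 mitophagy genes, 3 fell with EP300 siRNA in both settings (beside 31.4%, then 30.6%, of all genes), and FUNDC1 did not pass the test. BNIP3, a hypoxia-inducible receptor of the outer mitochondrial membrane, stood at 255, 266 and 227 CPM in siNC, 142, 143 and 131 in siEP300, 278, 297 and 265 in siNC.H2O2 and 125, 135 and 146 in siEP300.H2O2. Its log2 fold change with EP300 siRNA was -0.85 ± 0.07 (SE, adjusted p = 1.7e-07) without H2O2 and -1.05 ± 0.07 (adjusted p = 1.8e-08) with it. No library with EP300 siRNA reached the lowest with control siRNA, and H2O2 itself gave no call (adjusted p = 0.089 with control siRNA and 0.74 with EP300 siRNA).

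BNIP3L, also called NIX, is the close relative of BNIP3 that clears mitochondria from maturing red cells. It stood at 289, 271 and 259 CPM in siNC, 159, 149 and 155 in siEP300, 249, 262 and 276 in siNC.H2O2 and 132, 123 and 131 in siEP300.H2O2. The log2 fold change with EP300 siRNA was -0.82 ± 0.06 (adjusted p = 2.1e-08) without H2O2 and -1.03 ± 0.06 (adjusted p = 2.1e-09) with it. With H2O2 it fell by 0.26 ± 0.06 on the log2 scale among EP300 siRNA libraries (adjusted p = 0.0036), where the groups did not overlap. The control siRNA groups with and without H2O2 overlapped (adjusted p = 0.46).

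PINK1 encodes the kinase that accumulates on damaged mitochondria and recruits Parkin. It stood at 83.7, 85.3 and 95 CPM in siNC, 65.3, 66.4 and 66.9 in siEP300, 130, 115 and 108 in siNC.H2O2 and 66.4, 75.3 and 76.4 in siEP300.H2O2. Its log2 fold change with EP300 siRNA was -0.41 ± 0.08 (adjusted p = 2.8e-04) without H2O2 and -0.70 ± 0.08 (adjusted p = 1.8e-06) with it. H2O2 raised PINK1 by 0.42 ± 0.08 with control siRNA (adjusted p = 5.4e-04), and with EP300 siRNA the change was 0.14 ± 0.08 (adjusted p = 0.20). FUNDC1, another receptor of the outer membrane, stood between 18.4 and 22.7 CPM in all 12 libraries and overlapped across all 4 groups.

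Of the 5 cargo receptors, 4 rose with EP300 siRNA in both settings (beside 30.1%, then 28.4%, of all genes), and NBR1 fell. SQSTM1 (p62), which links ubiquitinated cargo to ATG8 proteins, was the most abundant of them at a mean of 192 FPKM, a level scaled to transcript length. It stood at 326, 348 and 354 CPM in siNC, 457, 460 and 482 in siEP300, 505, 420 and 408 in siNC.H2O2 and 677, 755 and 691 in siEP300.H2O2. The siEP300.H2O2 libraries were the highest and the siNC libraries the lowest, while siEP300 and siNC.H2O2 overlapped. The log2 fold change with EP300 siRNA was 0.45 ± 0.07 (adjusted p = 1.1e-04) without H2O2 and 0.67 ± 0.07 (adjusted p = 2.0e-06) with it. H2O2 raised SQSTM1 by 0.38 ± 0.07 with control siRNA (adjusted p = 0.0012) and by 0.60 ± 0.07 with EP300 siRNA (adjusted p = 2.8e-05).

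NBR1, the receptor that shares cargo with SQSTM1, moved the other way with EP300 siRNA. It stood at 210, 205 and 211 CPM in siNC, 169, 176 and 171 in siEP300, 210, 222 and 233 in siNC.H2O2 and 177, 157 and 168 in siEP300.H2O2, so the EP300 siRNA libraries lay below all controls. The log2 fold change was -0.28 ± 0.06 without H2O2 (adjusted p = 5.0e-04) and -0.41 ± 0.06 with it (adjusted p = 1.8e-05). CALCOCO2 (NDP52), a receptor for bacteria and damaged mitochondria, rose by 0.37 ± 0.05 (adjusted p = 1.5e-05) and 0.34 ± 0.05 (adjusted p = 3.9e-05). OPTN rose by 0.24 and 0.19, and TAX1BP1 by 0.36 and 0.16; the latter call, with H2O2, was lost without library siEP300.H2O2 10 (adjusted p = 0.052).

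In the initiation kinase complex no member was called with EP300 siRNA without H2O2, beside 61.5% of all genes. ULK1, the catalytic kinase, and RB1CC1 (FIP200), its scaffold, fell with EP300 siRNA in the presence of H2O2, with log2 fold changes of -0.29 ± 0.06 (adjusted p = 7.3e-04) and -0.32 ± 0.10 (adjusted p = 0.012). RB1CC1 spread widely within groups, and its call was lost without library siNC.H2O2 9 or without siEP300.H2O2 11 (adjusted p = 0.063 in both). ATG101, a small stabilising subunit and the most abundant of the complex at 62.7 FPKM, stood at 57.1, 67.1 and 61.3 CPM in siNC, 57.4, 58.8 and 57.6 in siEP300, 94, 81.5 and 69.4 in siNC.H2O2 and 73.9, 84.5 and 79.7 in siEP300.H2O2. Every H2O2 library lay above every library without it, and the groups that differ only in siRNA overlapped. H2O2 raised ATG101 by 0.40 ± 0.09 (adjusted p = 0.0038) with control siRNA and 0.45 ± 0.09 (adjusted p = 0.0020) with EP300 siRNA.

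All 5 genes of the class III PI3-kinase complexes rose with EP300 siRNA without H2O2, and 4 of 5 with it. The shares of all genes that rose were 30.1% and 28.4%, and the complexes were not tested as a set. BECN1 (Beclin 1), the regulatory subunit that binds BCL2, was the most abundant at 90.2 FPKM and moved the most. It stood at 113, 125 and 127 CPM in siNC, 196, 200 and 190 in siEP300, 139, 133 and 133 in siNC.H2O2 and 195, 194 and 208 in siEP300.H2O2. The lowest EP300 siRNA library lay well above the highest control. The log2 fold change was 0.68 ± 0.06 (adjusted p = 9.1e-08) without H2O2 and 0.56 ± 0.06 (adjusted p = 7.5e-07) with it.

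The other 4 genes of these complexes changed less, with log2 fold changes of 0.16 to 0.27 without H2O2 and 0.05 to 0.22 with it. PIK3C3 (VPS34), the lipid kinase itself, rose by 0.16 ± 0.06 (adjusted p = 0.023) and 0.19 ± 0.06 (adjusted p = 0.011). PIK3R4, its scaffold, rose by 0.27 ± 0.08 (adjusted p = 0.012) and, only just, by 0.20 ± 0.08 (adjusted p = 0.0499). ATG14 and UVRAG, which define the autophagosome-forming and endosomal versions of the complex, rose by 0.23 and 0.22 without H2O2, and with it UVRAG rose by 0.22 while ATG14 was at 0.05 ± 0.06 (adjusted p = 0.53). These calls held under fewer alternatives than that of BECN1. A limma test on FPKM lost all 4 without H2O2 (adjusted p = 0.059 for PIK3R4 to 0.19 for PIK3C3). The PIK3C3 call without H2O2 was also lost without library siNC 3, siEP300 4 or siEP300 6 (adjusted p = 0.060 to 0.10). That of PIK3R4 was lost without siNC 2 (adjusted p = 0.064), and with H2O2 it held in 8 of 21 alternatives.

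Among genes of membrane supply, WIPI1 fell and the lipid transfer proteins ATG2A and ATG2B rose with EP300 siRNA. WIPI1 binds phosphatidylinositol 3-phosphate, the product of the lipid kinase above. It stood at 42.2, 43.2 and 48.1 CPM in siNC, 26.2, 27.5 and 27.1 in siEP300, 72.9, 75.1 and 76.9 in siNC.H2O2 and 32.6, 37 and 38.8 in siEP300.H2O2. The 4 groups did not overlap: H2O2 gave a higher level on either siRNA, and the level with both treatments was below that of siNC. The log2 fold change with EP300 siRNA was -0.73 ± 0.07 (adjusted p = 8.1e-07) without H2O2 and -1.05 ± 0.07 (adjusted p = 1.1e-08) with it. H2O2 raised WIPI1 by 0.75 ± 0.07 with control siRNA (adjusted p = 1.1e-06) and by 0.42 ± 0.07 with EP300 siRNA (adjusted p = 5.9e-04).

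ATG2A rose by 0.40 ± 0.06 (adjusted p = 2.6e-05) without H2O2 and 0.41 ± 0.06 (adjusted p = 2.3e-05) with it. ATG2B rose by 0.31 ± 0.11 in both settings (adjusted p = 0.029 and 0.033), but its calls held in 13 and 14 of 21 alternatives. They were lost without siNC 2 or 3 or without any 1 of the siEP300 libraries (adjusted p = 0.052 to 0.13), and with H2O2 without siNC.H2O2 7 or 8 or siEP300.H2O2 10 (0.084 to 0.18). WIPI2, which recruits ATG16L1, rose with H2O2 present, by 0.21 ± 0.05 (adjusted p = 0.0040), and was at 0.04 ± 0.05 without it (adjusted p = 0.58). ATG9A, the transmembrane scramblase of the supply vesicles and the most abundant of this group at 37.3 FPKM, stood at 126, 125 and 131 CPM in siNC, 136, 130 and 129 in siEP300, 132, 126 and 122 in siNC.H2O2 and 128, 128 and 130 in siEP300.H2O2. Its groups overlapped throughout, and no comparison called it (adjusted p = 0.45 to 0.93).

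Promoter sequences are shown for BNIP3 and WIPI1, both lower with EP300 siRNA, as letters against which the motifs counted below can be read. They come from RefSeq's promoter table (GRCh38.p14), in which 35 of 41 members were matched, and were trimmed to bases before the gene's start that no annotated exon covers. Both lie on the minus strand and are written 5′ to 3′. Capitals mark the motifs CACGTG, the E-box core bound by MiT/TFE and other factors, and GCGTG, a core of the hypoxia response element, in its reverse complement CACGC. The BNIP3 stretch is chr10:131982014-131982173 and the WIPI1 stretch chr17:68457514-68457746, each directly upstream of the gene's GENCODE v29 span. The table's BECN1 entry lies inside that gene's span and is not shown.
BNIP3: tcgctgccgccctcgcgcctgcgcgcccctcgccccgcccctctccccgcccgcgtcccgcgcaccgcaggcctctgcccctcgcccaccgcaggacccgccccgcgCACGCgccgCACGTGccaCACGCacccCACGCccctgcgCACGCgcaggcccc
WIPI1: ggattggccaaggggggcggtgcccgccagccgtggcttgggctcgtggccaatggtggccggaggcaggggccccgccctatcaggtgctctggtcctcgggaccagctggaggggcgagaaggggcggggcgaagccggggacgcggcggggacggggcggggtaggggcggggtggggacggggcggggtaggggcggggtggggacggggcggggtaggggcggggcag
The BNIP3 stretch held 1 CACGTG and 4 copies of GCGTG, and the WIPI1 stretch held neither. Over the full 250 bases before each start, on both strands, CACGTG was in 3 of 46 member promoters (6.52%; ATG14, ATG3 and BNIP3), beside 6.34% of 35116 promoters. GCGTG was in 22 (47.8%, beside 32.2%), and ACGTG, the other common hypoxia core, which CACGTG contains, in 14 (30.4%, beside 18.5%). TGACNNNGC, the core of the antioxidant response element, was in 3 (6.52%, beside 10.9%). A match is a description of letters and not a bound site, and no match says only that the letters are not in this window.

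The 9 conjugation enzymes and ATG4 proteases were split in direction with EP300 siRNA. Without H2O2, 2 were higher and 3 lower (beside 30.1% and 31.4% of all genes). With it, 3 were higher and 4 lower (28.4% and 30.6%). ATG5, the partner to which ATG12 is covalently joined, stood at 65.8, 67.1 and 68 CPM in siNC, 44.3, 44.4 and 44.8 in siEP300, 67, 61.4 and 61.5 in siNC.H2O2 and 47.2, 48.2 and 49.8 in siEP300.H2O2. All EP300 siRNA libraries lay below all controls. The log2 fold change was -0.59 ± 0.05 (adjusted p = 3.3e-07) without H2O2 and -0.39 ± 0.05 (adjusted p = 2.4e-05) with it. ATG16L1, which holds the ATG12-ATG5 conjugate on the membrane, fell, with log2 fold changes of -0.33 ± 0.06 (adjusted p = 1.7e-04) and -0.43 ± 0.06 (adjusted p = 1.4e-05).

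ATG12 itself moved in the opposite direction, rising by 0.36 ± 0.06 (adjusted p = 1.0e-04) without H2O2 and 0.32 ± 0.06 (adjusted p = 2.9e-04) with it. ATG4A, a protease that trims and releases ATG8 proteins, stood at 13.1, 11.3 and 13.2 CPM in siNC, 18.1, 17.1 and 18.6 in siEP300, 14.8, 12.8 and 15 in siNC.H2O2 and 20.7, 20.9 and 22.7 in siEP300.H2O2. Its EP300 siRNA libraries lay above all controls. ATG4A rose by 0.52 ± 0.09 (adjusted p = 1.2e-04) and by 0.59 ± 0.09 (adjusted p = 3.3e-05), the second just past the 1.5-fold mark of 0.585. Its relative ATG4B fell, with log2 fold changes of -0.25 ± 0.07 (adjusted p = 0.0058) and -0.20 ± 0.07 (adjusted p = 0.021). The ATG4B call with H2O2 was lost without siNC.H2O2 7 or siEP300.H2O2 10 (adjusted p = 0.11 and 0.10). It was also lost with only the 2 groups fitted (0.056) and without the 3 libraries named with the interaction below (0.22).

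ATG3, the E2-like enzyme that couples ATG8 to lipid and the most abundant of these 9 at 97.8 FPKM, stood at 105, 119 and 114 CPM in siNC, 125, 123 and 120 in siEP300, 127, 109 and 111 in siNC.H2O2 and 132, 140 and 132 in siEP300.H2O2. With H2O2 it was called higher with EP300 siRNA (0.22 ± 0.07, adjusted p = 0.0092), and without H2O2 it was not (0.13 ± 0.07, adjusted p = 0.11). The ATG3 call with H2O2 was lost with limma on FPKM in all 3 forms (adjusted p = 0.063 to 0.091). ATG7, the E1-like enzyme, fell with H2O2 present (-0.23 ± 0.07, adjusted p = 0.011), a call lost without siNC.H2O2 8 (adjusted p = 0.068). ATG10, the E2-like enzyme for ATG12, and ATG4D were not called in either EP300 siRNA comparison.

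Of the 5 ATG8 genes, 2 rose and 1 fell with EP300 siRNA without H2O2 (beside 30.1% and 31.4% of all genes). With H2O2, 1 of them rose (beside 28.4%). GABARAP was the most abundant at 204 FPKM and stood at 197, 237 and 221 CPM in siNC, 210, 225 and 212 in siEP300, 224, 196 and 181 in siNC.H2O2 and 184, 200 and 193 in siEP300.H2O2. The siEP300.H2O2 libraries lay below all siEP300 libraries, the other groups compared overlapped, and no comparison called it (adjusted p = 0.12 to 0.91). MAP1LC3B (LC3B), the usual marker protein of autophagosomes, rose by 0.16 ± 0.05 (adjusted p = 0.012) without H2O2 and 0.20 ± 0.05 (adjusted p = 0.0042) with it. The MAP1LC3B call without H2O2 was lost without siNC 3 (adjusted p = 0.052) and with limma on log2(FPKM + 1) or log2(FPKM + 0.1) (0.055 and 0.059). Its near copy MAP1LC3B2 averaged 0.568 CPM, and reads shared between them would be counted by a rule that is not given in the sources used here. GABARAPL1 rose without H2O2 (0.20 ± 0.06, adjusted p = 0.0073) and was at 0.00 ± 0.06 with it (adjusted p = 0.97). MAP1LC3A fell without H2O2 (-0.28 ± 0.10, adjusted p = 0.028), a call lost without siNC 2, siEP300 5 or siEP300 6 (adjusted p = 0.073 to 0.18), and GABARAPL2 was not called.

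Of the MiT/TFE factors, TFE3 was the most abundant at 22.9 FPKM, and TFEB and MITF stood at 4.35 and 4.85 FPKM. TFE3 stood at 56.6, 60.9 and 63.1 CPM in siNC, 71.4, 69.2 and 72.7 in siEP300, 72.2, 68.3 and 67.9 in siNC.H2O2 and 70, 71.6 and 71 in siEP300.H2O2. Only the siNC group stood apart, below the 3 groups that received EP300 siRNA, H2O2 or both. TFE3 rose with EP300 siRNA without H2O2 (0.24 ± 0.06, adjusted p = 0.0017) and was at 0.03 ± 0.06 with it (adjusted p = 0.69). TFEB and MITF were not called in either EP300 siRNA comparison.

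**Figure D2:**
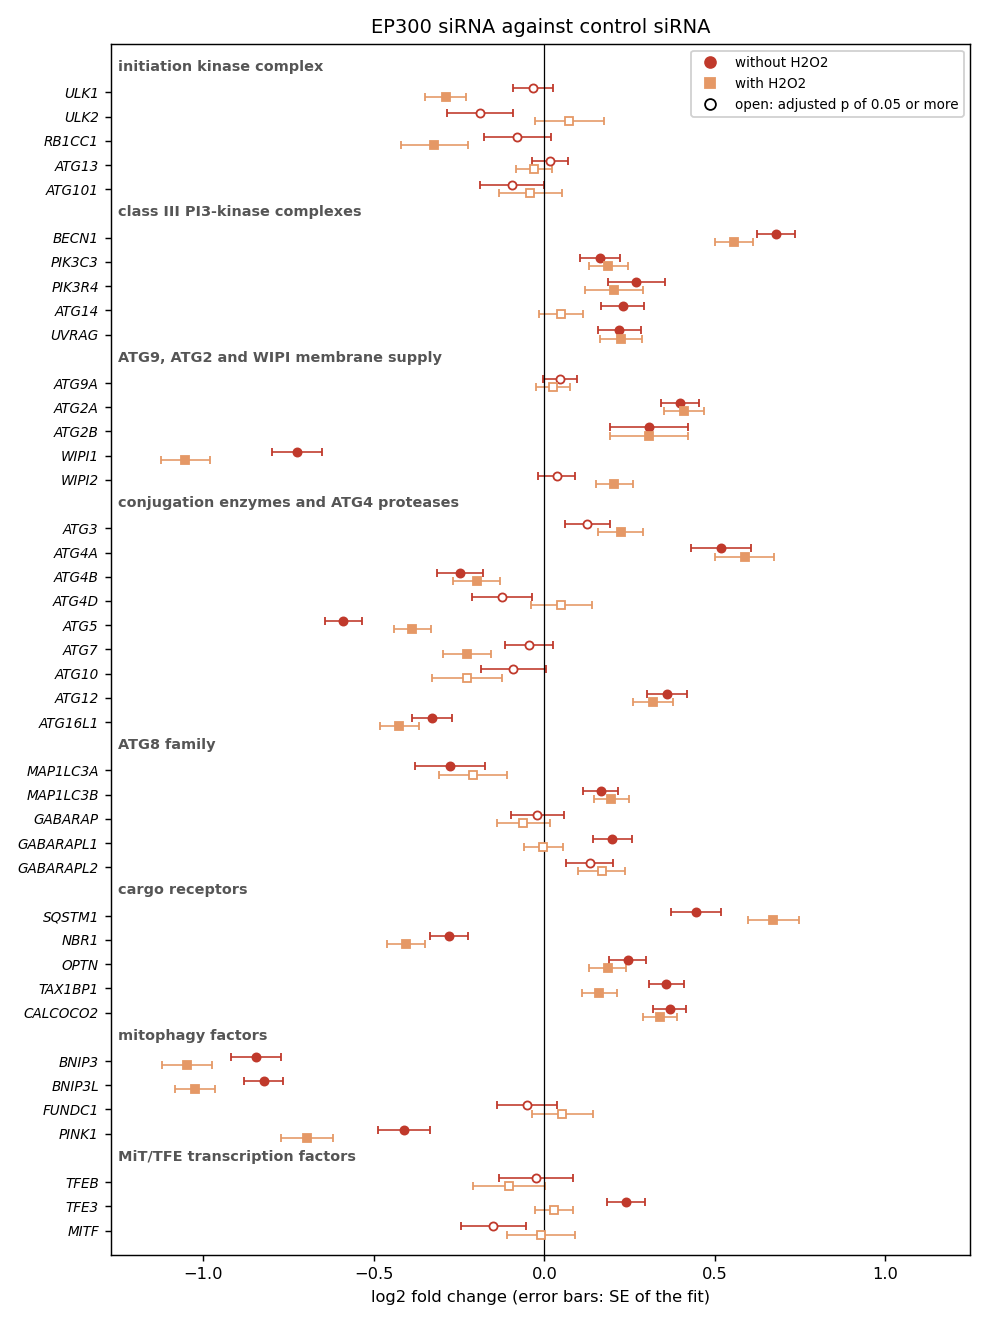
Log2 fold change with EP300 siRNA against control siRNA (linear axis) for each of the 41 genes, by role, without and with H2O2. Whiskers are the SE of the fit and open symbols an adjusted p of 0.05 or more; BNIP3, BNIP3L and WIPI1 lie farthest to the left and BECN1, SQSTM1 and ATG4A farthest to the right.

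The EP300 siRNA comparisons without and with H2O2 share no library, and their fold changes were alike across the members. Of 41 genes, 36 had the same sign in both, 13 were called higher in both, 8 lower in both, and 0 were called in opposite directions. Over all genes tested, 61.5% were called without H2O2 and 59% with it. The share of all genes called alike in both was not computed, so the likeness is not shown to be particular to the members. Pearson's r across the 41 genes was 0.93 and Spearman's rho 0.88, as a description of genes that were measured in the same libraries and share 1 scaling factor per library.

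H2O2 moved fewer of these genes. With control siRNA, 10 of 41 rose and 5 fell, against 17.8% and 17.4% of all genes, and WIPI1 alone rose at least 1.5-fold while 0 fell that far (background 4.59% and 4.43%). With EP300 siRNA, 8 rose and 5 fell, against 15.9% and 15.1%, and SQSTM1 alone rose at least 1.5-fold while 0 fell that far (3.42% and 4.19%). The median log2 fold change of members was 0.08 with control siRNA and 0.03 with EP300 siRNA, beside -0.01 and 0.00 over all genes. The count of 5 lower with control siRNA was 3 without siNC 3 or without siNC.H2O2 9. The rise of SQSTM1 past 1.5-fold rested on siEP300.H2O2 11, without which 0 members rose that far. On log2(FPKM + 1) the split of all calls with control siRNA was 1621 higher and 3276 lower, beside 2349 and 2298 on counts.

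Beside WIPI1, SQSTM1 and ATG101, H2O2 changed genes of several roles in the same direction on both siRNAs. ATG16L1 rose by 0.31 ± 0.06 (adjusted p = 6.2e-04) with control siRNA and 0.22 ± 0.06 (adjusted p = 0.011) with EP300 siRNA, and MAP1LC3B rose by 0.24 ± 0.05 (adjusted p = 0.0027) and 0.27 ± 0.05 (adjusted p = 0.0013). CALCOCO2, GABARAPL1 and ATG10 fell on both, with log2 fold changes of -0.19 and -0.22, -0.17 and -0.38, and -0.30 and -0.43. With control siRNA the GABARAPL1 call was lost without siNC 3, siNC.H2O2 8 or siNC.H2O2 9 (adjusted p = 0.084 to 0.12) and with only the 2 groups fitted (0.11). The ATG10 call was lost without siNC 3, siNC.H2O2 7 or siNC.H2O2 9 (adjusted p = 0.068 to 0.10), with only the 2 groups fitted (0.072), in DESeq2 (0.077) and without the 3 libraries named with the interaction below (0.063). That of CALCOCO2 was lost with only the 2 groups fitted (0.054).

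Other calls with H2O2 were made on 1 siRNA and not on the other. ULK2, the close relative of ULK1, fell with control siRNA (-0.45 ± 0.10, adjusted p = 0.0027), as did MITF (-0.40 ± 0.10, adjusted p = 0.0056), and TAX1BP1 rose (0.27 ± 0.05, adjusted p = 9.0e-04). ATG7, ATG12 and TFE3 rose with control siRNA by 0.21, 0.19 and 0.21, calls that held in 13, 14 and 16 of 21 alternatives. With EP300 siRNA, ULK1 fell (-0.20 ± 0.06, adjusted p = 0.020), a call lost without siEP300 4 or siEP300.H2O2 12 (adjusted p = 0.074 and 0.062), and WIPI2 rose by 0.22 ± 0.05 (adjusted p = 0.0058). PIK3C3 and ATG4A rose with EP300 siRNA by 0.18 and 0.25, and each call held in 13 of 21 alternatives. Over the 41 genes, 5 were called higher and 3 lower on both siRNAs, and 0 in opposite directions. Of all genes tested, 35.3% were called with control siRNA and 31.1% with EP300 siRNA. Their share called alike on both siRNAs was not computed. The H2O2 comparisons share no library with each other, but each shares its libraries with the EP300 siRNA comparisons.

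**Figure D3:**
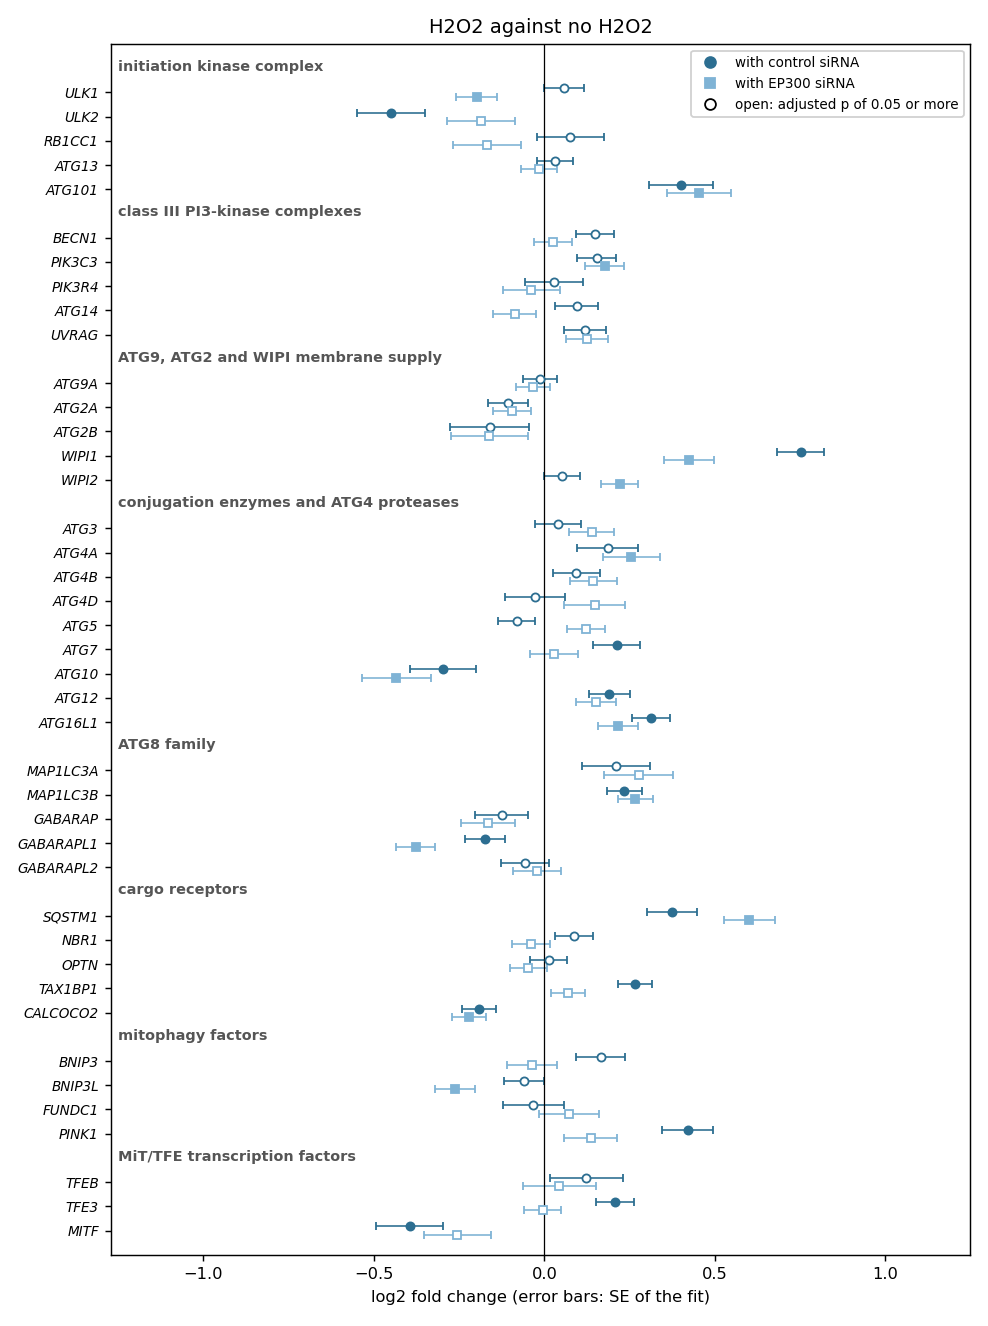
Log2 fold change with H2O2 against no H2O2 (linear axis) for each of the 41 genes, by role, with control and with EP300 siRNA. Whiskers are the SE of the fit and open symbols an adjusted p of 0.05 or more; WIPI1, SQSTM1 and ATG101 lie to the right on both siRNAs, and PINK1 passed the test with control siRNA.

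Whether the EP300 siRNA effect differed with H2O2 was tested as an interaction, that is, its log2 fold change in H2O2 less that without. In edgeR and in DESeq2 alike, 0 of 41 members passed, beside 3.33% of all genes in edgeR. Before adjustment, 10 members had a p under 0.05 in edgeR. The share of all genes at that unadjusted threshold was not computed, so the 10 cannot be set against a background. The values closest to the threshold were WIPI1 (-0.33 ± 0.10, adjusted p = 0.10), ULK1 (-0.26 ± 0.08, adjusted p = 0.12) and TAX1BP1 (-0.20 ± 0.07, adjusted p = 0.16). A call made in 1 setting and not in the other, such as that of TFE3 with EP300 siRNA or PINK1 with H2O2, is therefore not shown to differ between settings by this test. On simulated counts the interaction test called 51% of 1.5-fold differences. There the changes were given to a small random draw of genes of any abundance, without the within-group axis described below. That rate is therefore not a rate for these members, and it shows only that differences can be missed. On log2(FPKM + 1) the interaction calls over all genes were 325 higher and 229 lower, beside 148 and 291 on counts.

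The interaction depended on how the spread within groups was handled. A principal component of the within-group differences held 28.6% of that variance, with the largest scores in siNC 1 (17.6), siEP300.H2O2 10 (15.8) and siNC.H2O2 7 (-13.9). With that axis as a covariate, which is estimated from the same libraries, 2 members were called higher and 8 lower, beside 13.1% of all genes. These included PINK1 (-0.29, adjusted p = 0.0099) and TFE3 (-0.21, adjusted p = 0.030), which were not called without the 3 libraries named above (adjusted p = 0.33 and 0.21). Without those 3 libraries, an alternative chosen after seeing the data that leaves 2 libraries in 3 of the groups, 5 were called higher and 6 lower, beside 25.8% of all genes. Without siNC.H2O2 7 alone, 1 was called higher. Called under both changes were 5 members: ATG5 (0.20 and 0.27), SQSTM1 (0.23 and 0.39), RB1CC1 (-0.25 and -0.52), TAX1BP1 (-0.20 and -0.27) and BNIP3L (-0.20 and -0.30). The share of all genes called under both was not computed, so the 5 cannot be set against a background. The 3 libraries were picked by their scores on the same axis, so the changes are not independent of each other.

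**Figure D4:**
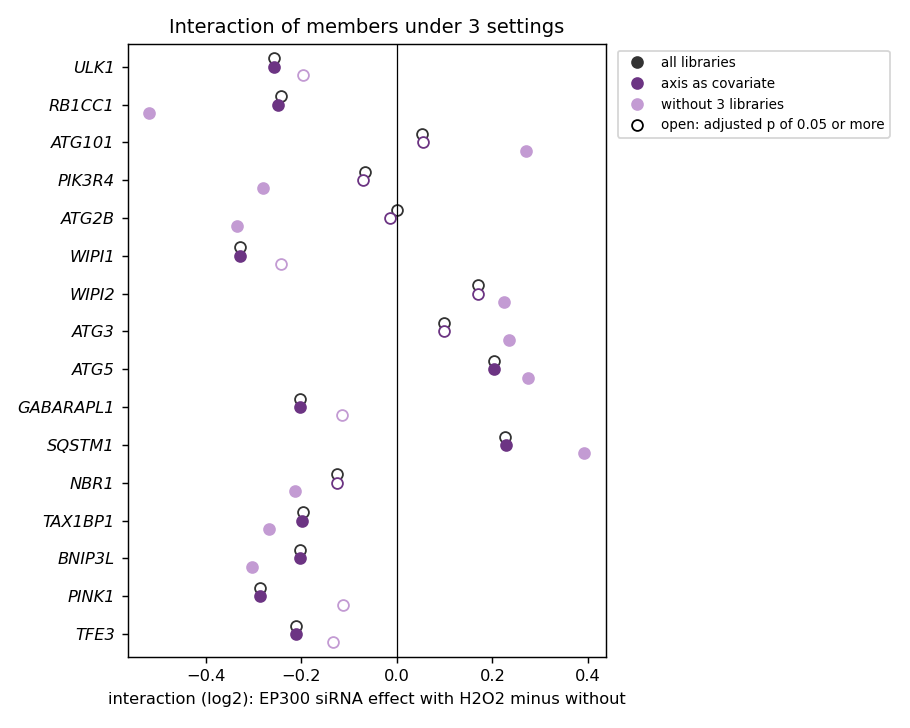
Interaction (log2, EP300 siRNA effect in H2O2 less that without, linear axis) of the 16 genes called under at least 1 of the changed settings, with all libraries, with the within-group axis as covariate and without 3 libraries. Open symbols have an adjusted p of 0.05 or more; all 16 are open with all libraries, and ATG5, SQSTM1, RB1CC1, TAX1BP1 and BNIP3L are filled under both changes.

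Partner genes that moved apart are described as ratios of FPKM within a library. These ratios were chosen after the values were seen and carry no test. ATG12 to ATG5 was 0.746, 0.821 and 0.693 in siNC, 1.35, 1.38 and 1.32 in siEP300, 0.774, 0.877 and 0.927 in siNC.H2O2 and 1.41, 1.42 and 1.26 in siEP300.H2O2, so ATG12 was below ATG5 in every control siRNA library and above it in every EP300 siRNA library. SQSTM1 to NBR1 was 2.63, 2.87 and 2.84 in siNC, 4.6, 4.45 and 4.78 in siEP300, 4.07, 3.22 and 2.96 in siNC.H2O2 and 6.52, 8.12 and 6.96 in siEP300.H2O2. The last group lay above all others, and the 4 groups did not overlap.

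**Figure D5:**
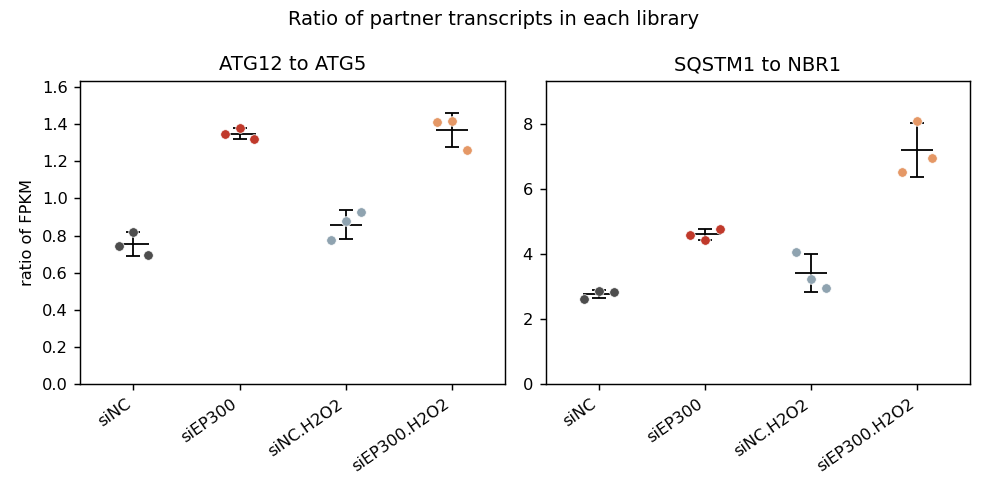
Ratio of FPKM (linear axis from 0) of ATG12 to ATG5 and of SQSTM1 to NBR1 in each library. Points are libraries and bars the mean ± SD (n = 3); the ATG12 to ATG5 ratio is 1.26 or more in all EP300 siRNA libraries and 0.927 or less in all controls.

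Other genes of the pathway were taken from 5 lists of 82 genes in all, of which 77 were tested. With EP300 siRNA 29 rose and 26 fell without H2O2, and 26 rose and 22 fell with it. These are 37.7% and 33.8% of the 77 without H2O2 and 33.8% and 28.6% with it, near the shares over all genes (30.1% and 31.4%, then 28.4% and 30.6%), beside which the counts of each list below can be read. The list of mTORC1, AMPK and TFEB control, the nutrient-sensing kinases upstream of ULK1, held the largest fold changes among the genes of these lists named here. A gene not named here, from the list of autophagosome-lysosome fusion genes, reached a log2 fold change of -4.05 with EP300 siRNA without H2O2. DEPTOR, an inhibitor of mTOR, stood at 14.3, 11.7 and 13.3 CPM in siNC, 2.29, 2.44 and 2.94 in siEP300, 12.2, 12.9 and 10.5 in siNC.H2O2 and 2.21, 1.66 and 2.15 in siEP300.H2O2. Its log2 fold change was -2.35 ± 0.14 (adjusted p = 3.0e-09) without and -2.56 ± 0.15 (adjusted p = 2.2e-09) with H2O2. AKT1S1 (PRAS40), another mTORC1 inhibitor, fell too, at -0.96 ± 0.08 (adjusted p = 1.7e-07) and -1.05 ± 0.08 (adjusted p = 8.2e-08).

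PRKAA2, a catalytic subunit of AMPK, stood at 11.5, 11.2 and 9.38 CPM in siNC, 33.9, 31.3 and 34.4 in siEP300, 8.62, 9.62 and 9.48 in siNC.H2O2 and 33.9, 26.1 and 29.5 in siEP300.H2O2. It rose by 1.63 ± 0.10 (adjusted p = 5.5e-09) without H2O2 and 1.69 ± 0.11 (adjusted p = 5.2e-09) with it, and its groups with and without EP300 siRNA did not overlap. Of the 26 genes tested in this list, 10 rose and 9 fell without H2O2 (38.5% and 34.6%), and 9 rose and 6 fell with it (34.6% and 23.1%).

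Of 14 other mitophagy genes tested, 3 rose and 7 fell with EP300 siRNA without H2O2 (21.4% and 50% of the list, beside 30.1% and 31.4% of all genes), and 2 rose and 7 fell with it (14.3% and 50%, beside 28.4% and 30.6%). BCL2L13, a mitophagy receptor of the outer membrane, stood at 52, 53.7 and 54.1 CPM in siNC and 97.4, 96.4 and 103 in siEP300, and with H2O2 at 53, 54.9 and 56.8 and at 108, 106 and 96.8. It therefore moved opposite to BNIP3 and BNIP3L, rising by 0.89 ± 0.06 (adjusted p = 8.1e-09) and 0.92 ± 0.06 (adjusted p = 5.8e-09). VDAC1, the outer-membrane channel that Parkin marks, fell in both settings (-0.53 ± 0.06, adjusted p = 2.6e-06 and 2.95e-06), and MARCHF5, a mitochondrial ubiquitin ligase, rose by 0.42 and 0.51.

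Among 11 receptors of ER-phagy and other selective autophagy, 4 rose and 4 fell without H2O2 (36.4% each), and 4 rose and 5 fell with it (36.4% and 45.5%). TEX264 and SEC62, receptors for the endoplasmic reticulum, fell in both settings, with log2 fold changes of -1.15 ± 0.11 (adjusted p = 5.6e-07) and -0.60 ± 0.07 (adjusted p = 1.9e-06) without H2O2 and of -0.72 and -0.55 with it. CCPG1, another such receptor, rose by 0.58 and 0.46.

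Of 14 other core autophagy genes tested, 8 rose and 2 fell without H2O2 (57.1% and 14.3% of the list, beside 30.1% and 31.4% of all genes), and 7 rose and 1 fell with it (50% and 7.14%, beside 28.4% and 30.6%). TMEM41B, a scramblase of the endoplasmic reticulum needed for autophagosome formation, rose by 0.38 and 0.56, and ATG16L2, the relative of ATG16L1, fell (-0.66 and -0.60). Of 12 fusion genes tested, 4 rose and 4 fell without H2O2 (33.3% each), and 4 rose and 3 fell with it (33.3% and 25%). PLEKHM1, a lysosomal adaptor, rose by 0.56 ± 0.08 (adjusted p = 1.4e-05) and 0.63 ± 0.08 (adjusted p = 5.5e-06), and VPS16, a subunit of the HOPS tether, fell (-0.45 ± 0.06 and -0.40 ± 0.07).

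In GENCODE v29 (GRCh38), the genes described in most detail lie at chr10:131966455-131982013 (BNIP3), chr1:20633455-20651511 (PINK1), chr17:68420948-68457513 (WIPI1), chr6:106045423-106325791 (ATG5), chr17:42810134-42833350 (BECN1), chrX:108091668-108154671 (ATG4A) and chr5:179806398-179838078 (SQSTM1). Exons of another gene overlap those of 22 of the 41 members, and a coding gene does so in 17. BECN1 is overlapped by CNTD1 and PSME3, SQSTM1 by MGAT4B and MRNIP, WIPI1 by ARSG, BNIP3L by PNMA2 and PINK1 by its antisense gene PINK1-AS. The strand setting of the counting is not given in the sources used here, so reads of these genes and their partners may be mixed. BNIP3, ATG5 and ATG4A have no such overlap.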

How the data were processed

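RNA was sequenced from 12 AC16 libraries in 4 groups of 3, assigned by the siRNA and H2O2 in the sample titles. The authors deposited a table of estimated counts per gene symbol, not scaled between libraries, and a table of FPKM, counts scaled to gene length and library total. HISAT, Bowtie2 and GRCh38.p13 are named per the submitters' processing notes; for versions, counting program, annotation and strand setting, nothing is given in these sources. The share of estimated counts that were not whole was 12.0% to 13.8% per library, and these were rounded.

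All genes were fitted with edgeR 4.0.16 in R 4.3.3 (glmQLFit, glmQLFTest, TMM factors of 0.969 to 1.05, filterByExpr, 1 mean per group over 12 libraries). Tests were two-sided and adjusted p-values are Benjamini-Hochberg over 13171 genes, with calls at 0.05. CPM are counts after TMM scaling of each library's total, and ± is the SE of a log2 fold change unless SD is named. That SE, also the SE of the fit in the figures, was back-calculated. It is the absolute log2 fold change divided by the square root of the test's F statistic. The biological coefficient of variation was 6.72%. Each library counted as 1 sample. Replicate pairs differed by more than sampling noise (chi-square per degree of freedom 1.81 to 18.9 over genes with at least 40 counts in the pair). This does not show that they came from separate cultures.

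The 41 members and all lists were chosen with earlier results of these data known. Full values went to members called at 1.5-fold or more, members whose interaction passed and the most abundant member (FPKM) of each role. From each other list, up to 3 genes with the smallest adjusted p in each EP300 siRNA comparison could be named. NBR1 and other members given in part were chosen after their values were seen. On simulated counts, the test of EP300 siRNA without H2O2 called 85% of 1.5-fold and 90% of 2-fold changes. The interaction test called 51% and 80%. The 21 alternatives were median-of-ratios scaling, DESeq2 1.42.0, no filter, only the groups compared, limma 3.58.1 on log2(FPKM + 1) filtered and unfiltered and on log2(FPKM + 0.1), the within-group axis as covariate, leaving out each library, and leaving out 3 libraries.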

Additional observations from a re-analysis of the deposited data

Results flagged for a closer look

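TOLLIP, a ubiquitin-binding adaptor from the list of ER-phagy and other selective receptors, was the 1 gene of the 77 other pathway genes tested whose EP300 siRNA effect differed with H2O2 by edgeR's interaction test. It stood at 42.6, 47 and 49.9 CPM in siNC, 29.6, 30.5 and 29.6 in siEP300, 48.3, 47.3 and 46.4 in siNC.H2O2 and 42.6, 43.2 and 41.6 in siEP300.H2O2. EP300 siRNA lowered it by a log2 fold change of -0.64 ± 0.06 without H2O2 (adjusted p = 7.2e-07) and -0.16 ± 0.06 with it (adjusted p = 0.041), a difference of 0.479 ± 0.09 (adjusted p = 0.0089). H2O2 raised it by 0.51 ± 0.06 among EP300 siRNA libraries (adjusted p = 3.8e-05).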

How the results depend on the processing

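All calls made for members kept their direction under the 21 alternatives. Of 25 and 26 members called with EP300 siRNA without and with H2O2, 18 and 18 were called under every alternative, and of 15 and 13 called with H2O2 on control and EP300 siRNA, 9 and 10. The cause of each change below was not tested. With limma on log2(FPKM + 1) or log2(FPKM + 0.1), 10 members rather than 16 rose with EP300 siRNA without H2O2. Over all genes, 3218 and 3209 rose in these 2 fits, beside 3964 on counts. With limma on FPKM in all 3 forms, 1 member rose at least 1.5-fold with EP300 siRNA in H2O2, and 0 with H2O2 on EP300 siRNA. Leaving out each library in turn gave 1 to 2 and 0 to 1 for these. Members lower with H2O2 on control siRNA numbered 2 when only the 2 groups compared were fitted and 3 to 5 when each library was left out. With only the 2 groups fitted, 1641 of all genes fell, beside 2298 with all groups. With H2O2 on EP300 siRNA, 14 members rose and 9 fell with the axis covariate, 8 fell with only the 2 groups fitted, and 10 fell without the 3 libraries. Over all genes, 3049 rose and 2974 fell with the covariate, beside 2100 and 1995 without it. Of all genes, 2576 fell with only the 2 groups fitted and 2844 without the 3 libraries. In the interaction, 2 members were higher and 8 lower with the covariate, and 5 and 6 without the 3 libraries. Leaving out each library gave 0 to 1 members higher and 0 lower. Without the 3 libraries, WDFY3 (0.31, adjusted p = 9.7e-04) and EP300 (0.19, adjusted p = 0.037) turned upward with H2O2 on control siRNA, and PRKAA1 was at -0.27 in the interaction (adjusted p = 0.017), each opposite in sign to the fit of all libraries. All-gene interaction calls were 148 higher and 291 lower, 687 and 1042 with the covariate, and 1496 and 1913 without the 3 libraries. With 3 libraries a group, changes of low genes such as TFEB and ATG10 are measured with the least counts.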

Other observations

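ATG2B, RB1CC1 and GABARAP are given here for which libraries were high or low within a group, and were chosen after their values were seen. ATG2B stood at 65.8, 48.6 and 53.7 CPM in siNC, 44.5, 49 and 56.9 in siNC.H2O2 and 71.7, 56.2 and 58.1 in siEP300.H2O2, and at 68.3, 68.3 and 71.4 in siEP300. RB1CC1 stood at 118, 91.9 and 103 CPM in siNC, 94.3, 113 and 122 in siNC.H2O2 and 96.9, 79.7 and 86.6 in siEP300.H2O2. In both genes, siNC 1, siNC.H2O2 9 and siEP300.H2O2 10 were the highest of their groups, and these 3 libraries also had the highest scores on the within-group axis (17.6, 12.1 and 15.8). GABARAP was lowest in those same 3 libraries, at 197, 181 and 184 CPM. The other core autophagy gene EPG5, a tether of late endosomes, was likewise highest in siNC 1 (92 CPM), siNC.H2O2 9 (114) and siEP300.H2O2 10 (141). What the axis stands for was not tested.

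The deposited count divided by FPKM, scaled by the library total, gives the effective length behind a gene's FPKM. For ATG5 it was 2567 bases in siNC, beside 2377 bases in siEP300, 2356 in siEP300.H2O2 and 2415 in siNC.H2O2, with the longest 1.09 times the shortest. The part of this in the FPKM ratio of ATG12 to ATG5 was not tested.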
